A study of Arabidopsis thaliana with 12 samples.

Results

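CML30 (AT2G15680) is a calmodulin-like gene of Arabidopsis thaliana, measured here by probe 1479, the only probe that the platform annotation assigns to it alone. It is 1 of 691 genes with a probe of their own, which hold 692 of the 3439 probes of the array. In the TAIR10.1 gene table CML30 lies wholly within the span of another gene, AT2G15690, with which it shares an end. The sequence and strand of the probe were not used here and 0 other probes are assigned to AT2G15690, so signal from the 2 genes cannot be told apart. The gene was chosen by its measured difference in intensity between the treatments, so its values are a description and carry no test. Wild-type plants of ecotype Columbia 0 were used throughout. On 6 arrays the plants had been given 2 µM staurosporine, a broad inhibitor of protein kinases, for 4 h, and ascorbate (25 mM, pH 5.5) for the following 4 h. On the other 6 arrays they had been given water for 4 h and the same ascorbate treatment afterwards. Both groups received ascorbate, so no value is a response to ascorbate itself. The labels do not name the tissue and do not say whether separate plants stand behind the arrays of a group, so p-values measure only the spread between these arrays, which may be technical.

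Calmodulin and the calmodulin-like proteins bind calcium through EF-hand loops and have no enzyme activity of their own. On binding calcium they change shape and attach to target proteins, through which a calcium signal is read. Other calcium sensors of plants carry a kinase domain or hand the signal to a partner kinase, the class of enzyme that staurosporine inhibits. In Arabidopsis, a tagged CML30 protein has been located to mitochondria.

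CML30 transcript signal was lower on every array of plants given staurosporine before ascorbate than on any array of plants given water before ascorbate. The deposited values are relative intensities on a linear scale that runs from 0 to about 100. The deposited intensity was 1.79, 1.56, 1.52, 1.38, 1.41 and 1.29 on staurosporine arrays 1 to 6, against 3.54, 3.03, 2.38, 2.59, 3.36 and 3.22 on water arrays 1 to 6. The dimmest water array, number 3, was still brighter than the brightest staurosporine array, number 1. Of the 526 single-gene probes above 0 on all 12 arrays, 34 (6.46%) were lower after staurosporine with no overlap of the groups in deposited intensity, and 49 (9.32%) were higher in this way. After quantile normalization between arrays these counts were 39 (7.41%) lower and 40 (7.60%) higher, and CML30 was among the lower ones on both scales.

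Quantile normalization, which gives every array the same distribution of values, left the gap in place. The normalized intensity of CML30 was 1.66, 1.47, 1.67, 1.51, 1.54 and 1.35 on staurosporine arrays 1 to 6, against 3.02, 2.58, 2.49, 2.69, 3.32 and 3.20 on water arrays 1 to 6. It averaged 1.53 ± 0.121 after staurosporine and 2.88 ± 0.345 after water (SD, n = 6 arrays each). The fitted log2 change of staurosporine over water was -0.91 ± 0.13 (SE, limma over 12 arrays taken as independent), a level 1.88 times higher in the water group. The array medians of deposited intensity ran from 0.351 to 0.486 on staurosporine arrays and from 0.252 to 0.419 on water arrays. The staurosporine array had the higher median for numbers 1, 2, 5 and 6 and the lower one for numbers 3 and 4, while CML30 was lower on the staurosporine array for every number. In bulk samples such as these, fewer cells that express a gene and less RNA per cell cannot be told apart.

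**Figure D1:**
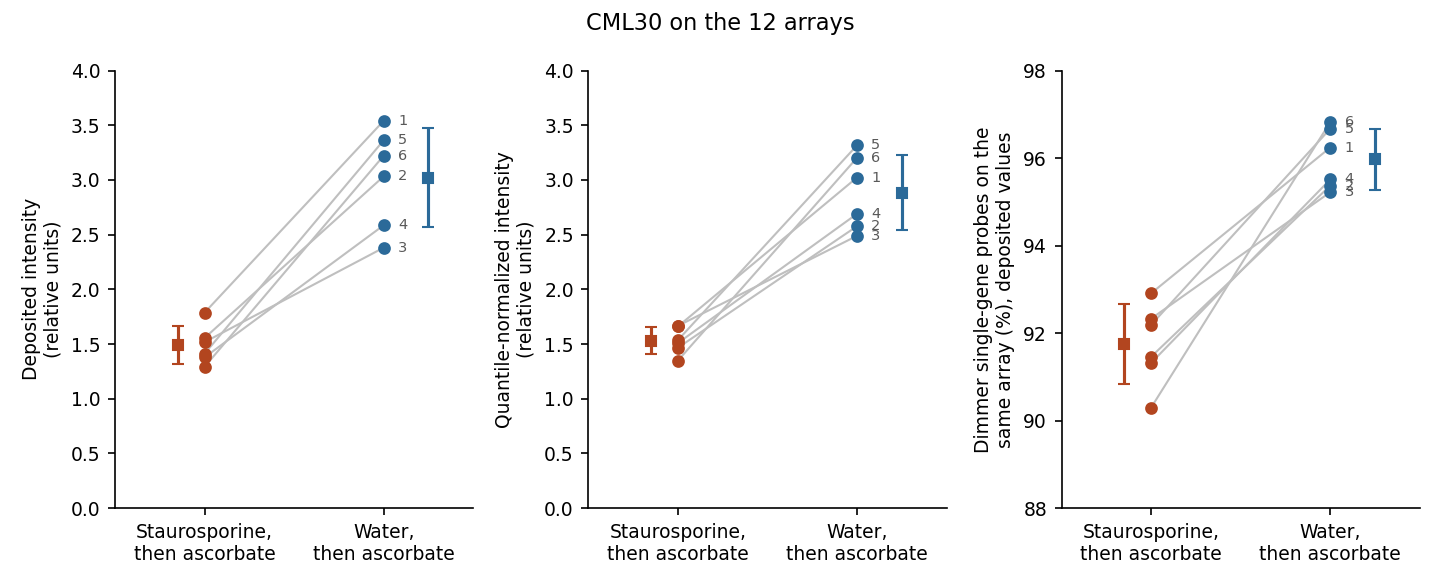
CML30 on staurosporine arrays (red, left) and water arrays (blue, right), as deposited intensity, as quantile-normalized intensity and as the percentage of single-gene probes dimmer than it on the same array; the third axis starts at 88. Circles are arrays, grey lines join arrays of the same number (printed at the right), and squares with bars are means ± SD (n = 6 arrays each); the staurosporine arrays lie below all water arrays in each panel.

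The difference was present in each of the 6 same-numbered pairs of arrays. On the normalized scale the log2 difference of staurosporine minus water was -0.86, -0.81, -0.58, -0.83, -1.11 and -1.25 for numbers 1 to 6. It was smallest for number 3 and largest for number 6, with a mean of -0.91 and an SD of 0.24 over the 6 numbers. In deposited intensity the same differences were -0.99, -0.96, -0.65, -0.91, -1.25 and -1.32. Among the 526 single-gene probes above 0 on all arrays, 99 (18.8%) were lower in all 6 pairs on the normalized scale and 68 (12.9%) on the deposited scale.

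Arrays 1 and 2, 3 and 4, and 5 and 6 of a group tended to resemble each other more than other arrays of that group. Rank correlations (Spearman, deposited intensities) were 0.889 to 0.987 inside these number pairs and 0.825 to 0.917 otherwise, so the ranges overlapped. For CML30, the mean normalized intensity of a number pair was 1.56, 1.59 and 1.44 after staurosporine, against 2.80, 2.59 and 3.26 after water. The SD of the 3 means was 0.0777 after staurosporine and 0.343 after water, or 5.08% and 11.9% of the group's mean (n = 3 number pairs each). The log2 change per number pair was -0.84 for numbers 1 and 2, -0.71 for numbers 3 and 4 and -1.18 for numbers 5 and 6. Numbers 5 and 6 held both the highest water mean and the lowest staurosporine mean. The 2 arrays of a number pair, which may share a sample, differed by 0.05 to 0.23 on the log2 scale.

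Few probes varied as little within a group, though choosing a gene by its difference between the groups can favour a small spread. The pooled within-group SD of CML30 on the log2 normalized scale was 0.15, against a median of 0.40 over the 526 single-gene probes above 0 on all arrays, of which 98.3% had a larger SD. Bright probes as a class varied less, with a median SD of 0.31 over the 70 probes above 0 on all arrays that belong to the brightest 10% of single-gene probes, and 94.2% of the others of these 70 still had a larger SD than CML30. The SD was 0.12 among staurosporine arrays and 0.17 among water arrays.

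CML30 gave one of the brighter signals among single-gene probes. Averaged over the 12 arrays, its normalized level was the 39th highest of 692, with 94.5% of the others dimmer. A probe's brightness depends on its sequence and spotting as well as on transcript number, so this place does not rank genes by transcript abundance. Within a single array the place needs no scaling between arrays. There CML30 ranked 50th to 68th from the top on staurosporine arrays (median 57.5), against 23rd to 34th on water arrays (median 29.5). It therefore stood lower in the order of probes on each staurosporine array than on each water array. Relative to the median of all probes on its array, CML30 was 2.67 to 4.28 times as bright on staurosporine arrays and 6.22 to 14.1 times as bright on water arrays.

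The change of CML30 was larger than that of most probes but not among the extremes. Of the 526 single-gene probes above 0 on all arrays, 6.67% had a more negative log2 change and 15.6% a larger change in either direction. The median log2 change of these probes was -0.02, and from the 5th to the 95th percentile they ran from -1.03 to 1.15. Over all 692 single-gene probes 16.4% had a more negative value. That larger share includes probes listed at 0 on some or all arrays, whose fitted values depend on the floor set for each array. Among the 70 brightest probes CML30 had the 7th most negative change.

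**Figure D2:**
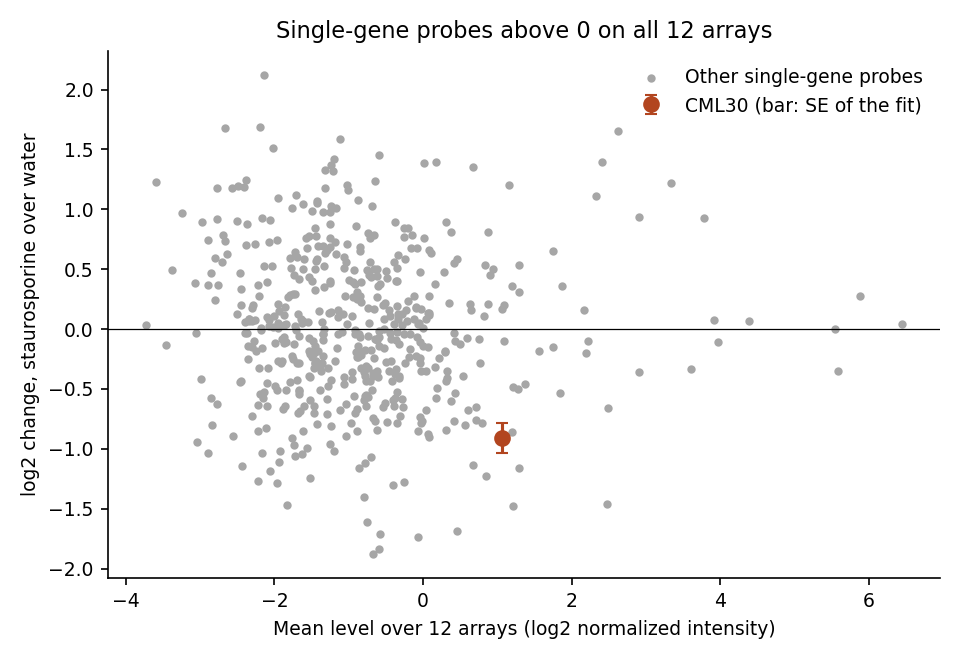
Mean log2 normalized level over 12 arrays against the log2 change of staurosporine over water for the 526 single-gene probes above 0 on all arrays, with CML30 in red (bar: SE of the fit). CML30 lies among the brighter probes, at a change of -0.91, where 6.67% of the probes lie lower.

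Calcium signalling beyond CML30 was thinly covered by genes that could be matched by name. Apart from CML30, 293 genes of the TAIR10.1 gene table were on 6 lists. These held calmodulins, other sensors, sensor-linked kinases, calmodulin-binding proteins, calcium transporters and genes with calcium or calmodulin in a name. The lists were matched on gene symbols and synonyms, so calcium genes known only by a locus name could be missed and are not counted. Only 4 of the 293 listed genes had a probe of their own, and all 4 gave a signal. Of these 4, 1 was higher after staurosporine, 0 were lower and 3 did not pass an adjusted p of 0.05 in limma; at an unadjusted p under 0.05, 0 were lower as well. Over all single-gene probes the share called was 22.3%, with 11.0% higher and 11.3% lower, so 1 of 4 is near that background. With the replicate number as a block 22.3% of single-gene probes were called as well, and with the number pairs averaged 0.00%. The median log2 change of the 4 was 0.60, against -0.12 over all single-gene probes and -0.02 over those above 0 on all 12 arrays. No single-gene probe matched the lists of sensor-linked kinases, protein kinases or protein phosphatases. These lists were also matched by name, so kinases and phosphatases known only by a locus name may still be among the probes. The direct targets of staurosporine were therefore not analysed here.

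CML41, the other calmodulin-like gene on the lists with a probe of its own, is a sensor of plasmodesmata that takes part in immune closure of these channels. Its normalized intensity was 1.25, 1.09, 0.697, 1.26, 1.29 and 1.53 on staurosporine arrays 1 to 6, against 1.40, 1.25, 1.55, 1.53, 1.14 and 1.06 on water arrays 1 to 6. The groups overlapped over most of their range, and 4 of 6 same-numbered pairs were lower. Its log2 change was -0.18 ± 0.20 (SE, n = 12 arrays), with a limma adjusted p of 0.509. Leaving out numbers 3 and 4 turned it to 0.09, and CML30 was at -1.02 without those numbers. Whether the changes of the 2 genes differ was not tested, because CML30 was chosen for its own.

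IQD32, a protein of the IQ67-domain family whose members bind calmodulin and associate with microtubules, was higher after staurosporine. Its normalized intensity was 0.258, 0.295, 0.293, 0.269, 0.400 and 0.274 on staurosporine arrays 1 to 6, against 0.166, 0.0740, 0.202, 0.268, 0.0591 and 0.0940 on water arrays 1 to 6. Water array 4 reached into the staurosporine range, while the other 5 water arrays lay below it. Its log2 change was 1.25 ± 0.35 (SE), higher in 6 of 6 same-numbered pairs, with a limma adjusted p of 0.0240. The call was lost with the number pairs averaged (adjusted p 0.211) or as a random block (0.200), without staurosporine array 5 (0.0552), water array 2 (0.0505) or water array 6 (0.0530), and without numbers 1 and 2 (0.130) or 5 and 6 (0.245) of both groups.

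IQD22, of the same calmodulin-binding family, had a log2 change of 0.34 ± 0.50 (SE) and a limma adjusted p of 0.639. It was listed at 0 on 1 staurosporine array, and 3 of its 6 same-numbered pairs were higher. GLR2.7, a glutamate receptor-like channel of a clade that carries calcium into cells, had normalized intensities of 1.82, 1.91, 0.754, 0.583, 1.002 and 1.28 on staurosporine arrays 1 to 6, against 0.859, 0.850, 0.348, 0.217, 0.978 and 1.07 on water arrays 1 to 6. The groups overlapped, and each of the 6 same-numbered pairs was higher after staurosporine. These 6 pairs, here and for IQD32, are not independent where number pairs resemble each other. The share of all probes higher in 6 of 6 pairs was not counted. The log2 change of GLR2.7 was 0.85 ± 0.45 (SE), with a limma adjusted p of 0.201. This was 0.0338 when the replicate number was fitted as a block, and 0.525 after averaging the number pairs.

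**Figure D3:**
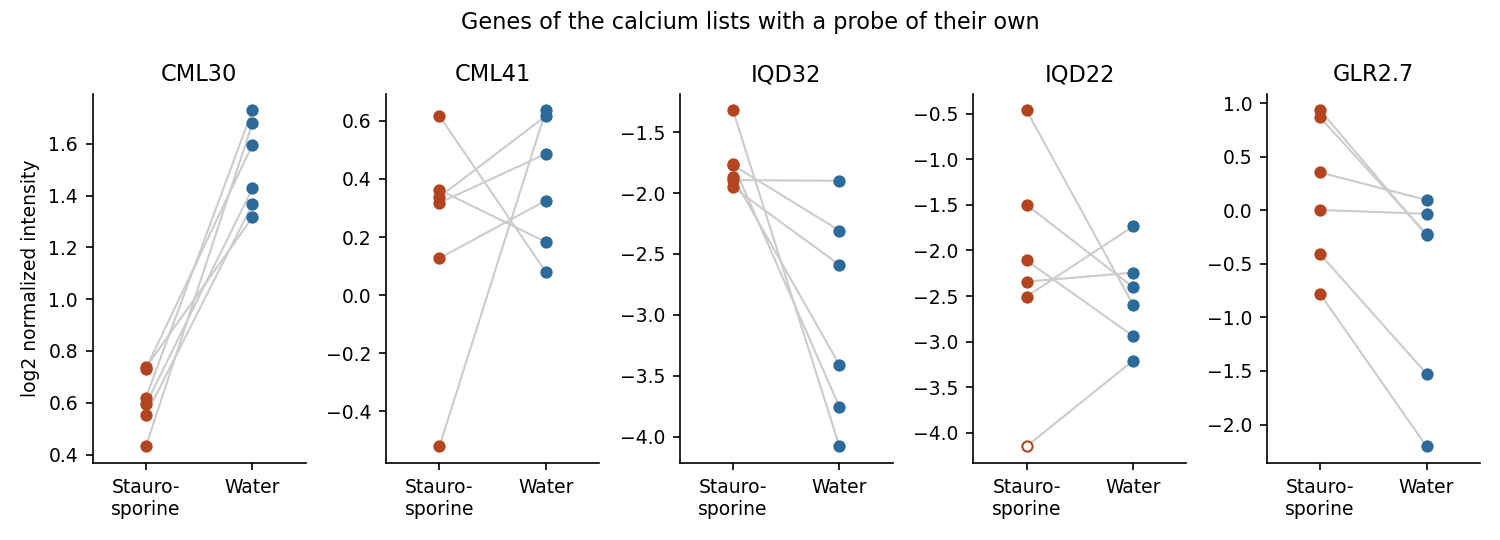
Log2 normalized intensity of CML30 and the other 4 genes of the calcium lists on staurosporine arrays (red, left) and water arrays (blue, right); each panel has its own vertical scale, grey lines join arrays of the same number, and the open circle is a value deposited as 0. The groups are apart for CML30 and overlap for CML41, IQD32, IQD22 and GLR2.7.

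Across the 12 arrays, the single-gene probe whose log2 normalized level ran most like that of CML30 was PSAN, the lumenal subunit of photosystem I near the plastocyanin docking site, with a Pearson correlation of 0.96 and a Spearman correlation of 0.87. The next were AT5G50350 (Pearson 0.96), AT2G20920 (0.93), AT4G31060 (0.93) and AT2G37880 (0.93), and 10 of 525 probes had a Pearson correlation above 0.9. The median correlation of the 525 was 0.01. All 5 were lower after staurosporine in 6 of 6 same-numbered pairs, with log2 changes of -1.73, -1.13, -1.16, -1.07 and -1.02. Most opposite were AT4G24930 (Pearson -0.97), AT3G52070 (-0.96) and AT1G72020 (-0.94), which were higher in 6 of 6 pairs with log2 changes of 1.21, 1.40 and 0.79. These correlations mostly restate the difference between the groups, and their 12 points share arrays and number pairs.

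**Figure D4:**
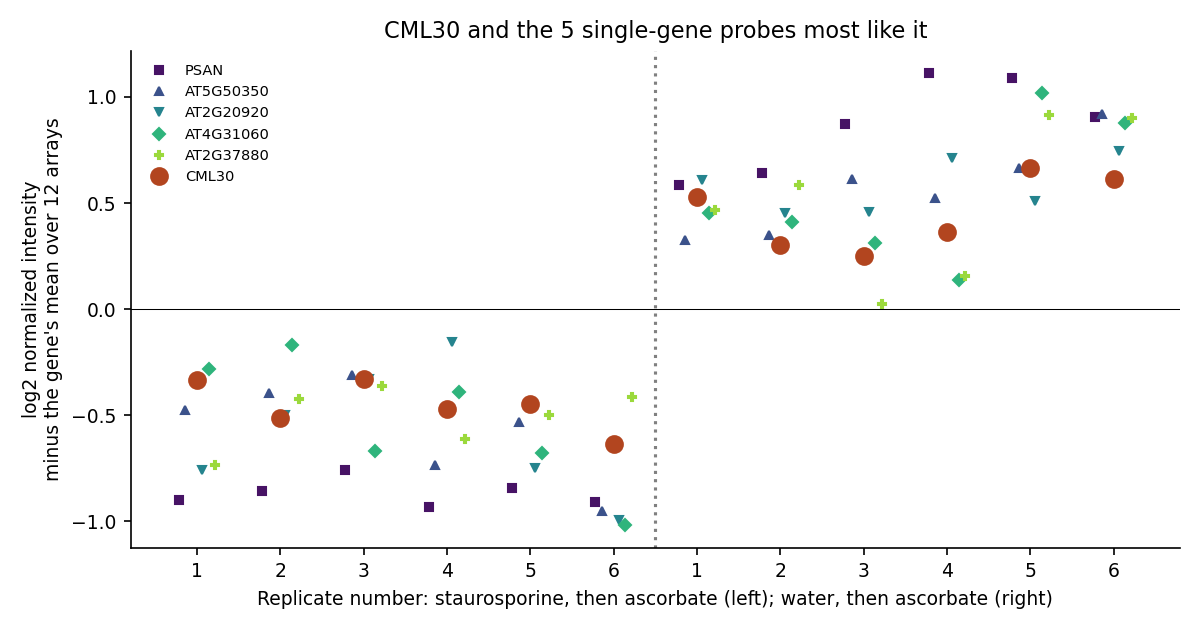
Log2 normalized intensity, less each gene's mean over 12 arrays, of CML30 (large red circles) and the 5 single-gene probes most like it, on staurosporine arrays 1 to 6 (left) and water arrays 1 to 6 (right). Every point of the 6 genes lies below 0 on staurosporine arrays and above 0 on water arrays.

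With the group means taken out, the likeness concerned other genes. Deviations of CML30 from its group means ran most like those of AT4G27250 (Pearson 0.79), AT1G02020 (0.75), GH9B16 (0.75), AT4G33500 (0.73) and AT2G44530 (0.71), where GH9B16 belongs to a family of plant endoglucanases. They ran most opposite to AT5G65250 (-0.81), SIRB (-0.80), the ferrochelatase that makes siroheme, and AT5G33390 (-0.80). These are the extremes of 525 probes, whose median correlation was -0.05, with 0 above 0.9. Their 12 points also share arrays and number pairs. The treatment difference of the 5 most alike had no common direction. AT4G27250 and AT4G33500 were higher after staurosporine by 0.59 and 0.72 (limma adjusted p 0.0110 and 0.0128), GH9B16 was lower by a log2 change of -0.55 (0.0401), and AT1G02020 and AT2G44530 did not pass, with -1.40 (0.0515) and -0.42 (0.301). The blocked fit took GH9B16 to 0.0844. With the number pairs averaged none of these 3 calls held, at 0.247 for AT4G27250, 0.227 for AT4G33500 and 0.322 for GH9B16.

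The log2 change of CML30 kept its sign and stayed between -1.30 and -0.83 under 24 other ways of processing the arrays. Blocks, averaged number pairs and the filter on values at 0 cannot move it from -0.91, so they bear only on its SE. Limma draws the variance of each probe towards a value shared by all probes, so this SE is not from CML30 alone. That SE was 0.15 with the replicate block, 0.19 with number pairs as a random block and 0.22 with the number pairs averaged. It was 0.26 when the averaged pairs were also blocked. The log2 change was -1.01 without further normalization, where the median over all probes was 0.19, and -1.30 with arrays centred on their medians. Set against the median of single-gene probes above 0 on all arrays under the same processing, its distance from that median was -0.89 in the 12-array fit and -1.16 to -0.82 in the others. Leaving out 1 array at a time gave -0.96 to -0.87.

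**Figure D5:**
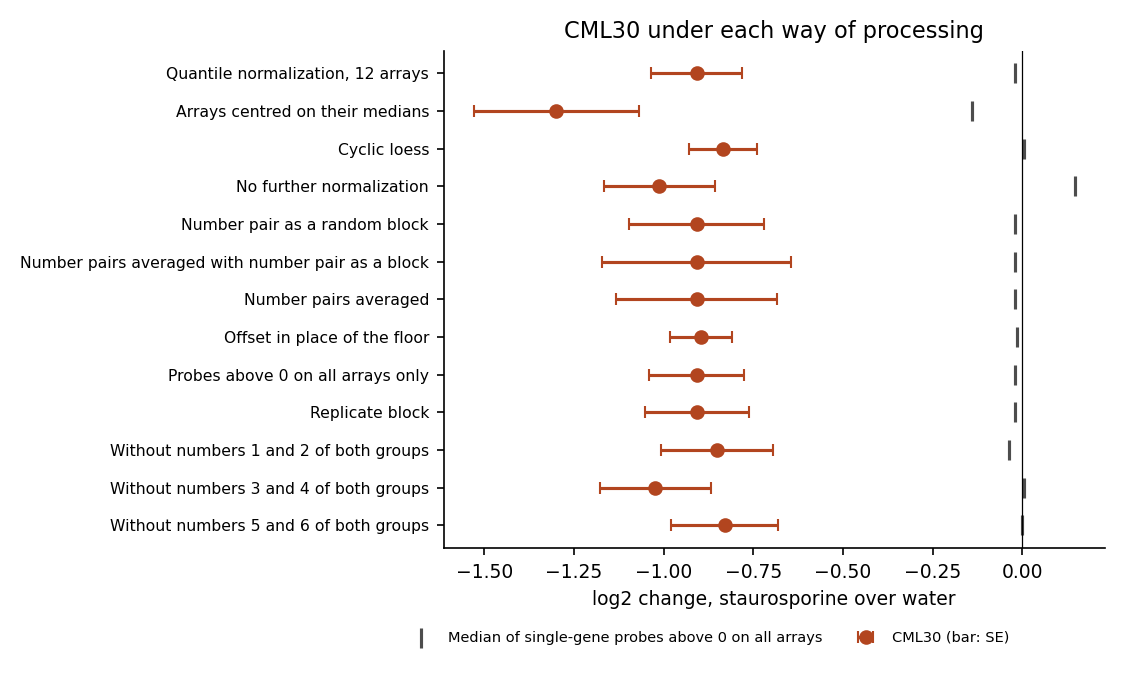
Log2 change of CML30, staurosporine over water, under quantile normalization of 12 arrays and 12 other ways of processing (circles, bars: SE), with the median of the single-gene probes above 0 on all arrays (ticks). CML30 lies between -1.30 and -0.83 in all of them and the medians between -0.14 and 0.15.

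The labels give no tissue to check markers against. Photosynthetic genes, the only marker list with single-gene probes, were above 0 on all arrays for 7 of 7 genes, and their summed normalized level ran from 58.2 to 77.9 on staurosporine arrays and from 52.9 to 71.0 on water arrays. PSBW, a small photosystem II subunit with by far the brightest probe of the list, makes up most of that sum, and its log2 change, 0.28, was positive. Without PSBW, as computed after its values were seen, the other 6 summed to 4.11 to 4.79 on staurosporine arrays. On water arrays they summed to 6.98 to 10.1, apart and in the direction of CML30. The median log2 change of the 7 was -0.41, with 5 negative and 2 positive values. It was -0.12 over all single-gene probes and -0.02 over those above 0 on all arrays, as these 7 are. Of the 7, PSAN (log2 change -1.73, limma adjusted p 9.13e-06) and LHB1B2 (-0.65, 0.0177) were lower and 5 did not pass. The part of tissue makeup in the CML30 result was not tested.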

How the data were processed

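The 12 deposited columns hold 1 linear intensity per probe and array; no source used here says how the authors corrected and scaled these intensities. Of the 12 arrays, 8 reach an upper end of 100, so the scale is relative. All 12 columns were used. CML30 and the gene lists were chosen with earlier results of these data known.

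Because array medians were over 5% apart, quantile normalization was applied, values under the 1st percentile of an array's positive values were set to it, and log2 was taken. The comparison used limma 3.58.1 under R 4.3.3 (lmFit, eBayes, two-sided, Benjamini-Hochberg over 3439 probes, threshold 0.05), after a test on simulated data. The simulated arrays were independent, so that test does not cover arrays that resemble each other inside number pairs. The number of arrays limits the precision.

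Groups and replicate numbers come from the sample titles. Same-numbered arrays deviated together across groups (correlations 0.297 to 0.545 over all probes and 0.158 to 0.273 over probes above 0 on all arrays, all above the limit of 0.1), so the number was also fitted as a block. Other alternatives were 4 scalings or treatments of 0, a filter on values at 0, averaged or randomly blocked number pairs, and left-out arrays or numbers.

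Probes were named from the platform annotation, updated by gene identifier to TAIR10.1 symbols (690 of 692 matched); 870 probes with several genes and 1877 with none stay unnamed. The gene table has no product names beyond its synonyms, so the lists are incomplete. Genes named are CML30, calcium-list genes with a signal, the 5 probes most like and 3 most opposite to it by each of 2 measures, and the 3 next to it on either side in change. PSAN and LHB1B2 are also given as photosynthetic markers. No list of root, seed, guard cell, myrosin cell or trichome markers had a single-gene probe.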

Additional observations from a re-analysis of the deposited data

Results flagged for a closer look

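In 58 groups of 6 arrays (the named genes, the array medians and the counts of probes at 0), 1 array lay far from the other 5 in 2 groups, where chance gives about 1 in 20. For IQD32, staurosporine array 5 stood at 0.400 in normalized intensity, and the nearest array of its group at 0.295. For AT5G22620, staurosporine array 4 had 0.134, the only array on which this probe was above 0, and the next value, 0.0447, is a floor. Neither group of CML30 held such an array.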

How the results depend on the processing

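Number pairs and scaling moved these results most, and the causes were not tested. The 788 probes called (limma, 48.4% higher) became 191 with number pairs as a random block, 9 with the number pairs averaged, 2 when these also had the number pair as a block (chosen after seeing the data), 473 without numbers 1 and 2 and 377 without numbers 5 and 6 of both groups. Leaving out 1 array gave 614 to 751. The share higher was 60.6% without further normalization and 34.4% with centring on medians. With the pairs averaged 0 single-gene probes passed in limma (129 at an unadjusted p under 0.05), so all 15 calls among named genes were lost; the random block ended 7 of them. The calcium genes called, 1 of 4, were 2 with the replicate block, 0 or 1 without 1 array, and 0 with averaged pairs, with averaged and blocked pairs, with the random block, or without numbers 1 and 2 or 5 and 6. CML30 moved to -1.30 with centring. The percentage of single-gene probes more lowered than CML30, 16.4%, was 3.76% with centring and without further normalization, 9.12% with cyclic loess, 6.37% with an offset for the floor, 6.67% over probes above 0 and 9.12% to 19.7% without 1 array. Its level stayed at 94.5% to 95.1% without 1 array.

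With the replicate number as a block, GLR2.7 (adjusted p 0.0338) gained a call and GH9B16 (0.0844) lost one, and no other named gene changed its call. Sign changes befell only uncalled genes. AT5G22620, at 0 on 11 arrays, went to 0.35 with centring, 0.42 with cyclic loess, 0.64 without normalization and 0.42 with the offset. AT5G65250 went to -0.082 with centring, -0.20 with cyclic loess, -0.026 with the offset, -0.78 without numbers 5 and 6, and -0.25 to 0.32 without 1 array. IQD22 went to -0.12 with cyclic loess, -0.35 without numbers 5 and 6, and -0.011 to 0.72 without 1 array. CML41 went to 0.086 and AT1G79220 to 0.40 without numbers 3 and 4, and APTX ran from -1.52 to 0.20 without 1 array. The kinase and phosphatase lists matched no single-gene probe by name, so no alternative was run for them.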

Other observations

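Next to CML30 in the order of log2 changes over the 692 single-gene probes stood APTX (-0.91 ± 1.46, SE), AT5G22620 and AT3G15140 (-0.91 ± 0.18) on the more lowered side, and AT1G79220 (-0.90 ± 0.86), AT2G36480 (-0.90 ± 0.22) and Z-ISO, an isomerase of carotenoid synthesis (-0.89 ± 0.52), on the other. CML30 had the smallest SE of these 7 with the 12 arrays taken as independent, at 0.13. With the number pairs averaged and blocked, the limma SE was 0.263 for CML30, 0.261 for AT3G15140 and 0.266 for APTX. That SE leans on a variance shared by all probes, so this order does not rank the spread of the genes. Of the other 6, AT3G15140 (limma adjusted p 0.00354) and AT2G36480 (0.0119) passed, and neither did with the number pairs averaged (0.146 and 0.220). AT5G22620 was listed at 0 on 11 of 12 arrays and its value is set by the floor.

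A further 4 probes carry 2 genes each, at least 1 of them on a calcium list, and are given by number. Probe 39 was higher after staurosporine, at 0.449 ± 0.0667, against 0.302 ± 0.0717 after water (SD, n = 6 arrays each), which is 0.59 ± 0.18 (SE) on the log2 scale; its adjusted p in limma was 0.0361, or 0.295 with the number pairs averaged. Probes 1579 (1.10 ± 0.48), 2246 (-0.19 ± 0.28) and 2519 (-0.16 ± 0.26) did not pass.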
